A study of Xenopus laevis with 16 samples.

Results

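Animal caps that carried Pax3 and Zic1 and were kept from making new protein with cycloheximide were compared with untouched control caps. An animal cap is a piece of prospective ectoderm of the frog Xenopus laevis, removed at the blastula stage, that turns into epidermis when left alone. The comparison used 6 of the 16 arrays of the series, which hold 6 of its 15 biological samples, chosen by their labels: 3 replicates of each kind, paired by replicate number. All 32539 probe sets of the Affymetrix array other than its own controls were members of the comparison.

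The treated caps came from embryos that had received Pax3-GR and Zic1-GR by injection when they had 2 to 4 cells. In these constructs the factor is fused to the hormone-binding part of the glucocorticoid receptor, so that dexamethasone switches it on. Embryos grew at 15 °C until their caps were taken at stage 9. The caps were held in cycloheximide (0.1 mg/ml, 23 °C) from stage 10 for 30 min, then got dexamethasone at stage 10.5 as well, and were lysed 2 h after that, at sibling stage 11.5 to 12. Control caps were not injected and received neither dexamethasone nor cycloheximide. The factors, the injection, the hormone and the drug therefore all differ between the groups and cannot be told apart here. No group of the series received dexamethasone, an injection or the drug without Pax3. In all, 2 further contrasts, each against a group that shares some of these conditions, are given beside the main one where they differ: the treated caps against Pax3 and Zic1 caps without the drug, and against Pax3 caps with the drug. These 3 comparisons share the treated samples, so they are not independent.

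Neural crest and placodes arise at the neural plate border, where future neural plate meets future epidermis, and the transcription factors Pax3 and Zic1 act there. Cycloheximide stops translation by blocking the ribosome, and is used to ask which genes a factor can reach without a newly made protein in between. The same drug also stabilises short-lived mRNAs of immediate early genes and removes labile repressors, which raises some transcripts with no factor added.

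Values are log2 expression per probe set, the scale taken from the values themselves. A change is the mean log2 difference of the treated and control caps ± SE, with n = 3 per group. It was called at a Benjamini-Hochberg adjusted p under 0.05 from limma, fitted over all 5 groups with the replicate number as a block. A gene with several probe sets stands for the one with the highest mean level, and the endings .L and .S name the copies of a gene on the long and short chromosome sets of this genome. Such copies, and members of a family, can share signal on a probe set, so a difference between them is uncertain.

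Treated replicate 3 stood apart before any test. In 11 probe sets it lay at least 2 log2 above all 14 other samples, and in 0 below them. All 11 carried names of genes of the dorsal mesoderm or endoderm of the gastrula, or of their signals: mespa.S, mespa.L, frzb.L, frzb.S, cer1.S, foxa4.S, foxa4.L, bix1.1.L, bix1.2.S, mix1.S and xenf.L. For mespa.S the value was 7.27 in that sample, against at most 2.41 elsewhere. The same count was 2 above and 0 below in treated replicate 2, 0 above and 3 below in treated replicate 1, and 4 above and 2 below in control replicate 3. Pax3 and Zic1 caps without the drug, replicate 3, had 43 above and 42 below. The counts for mesoderm, endoderm and organizer genes are therefore also given without treated replicate 3.

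The injected genes were read first. The probe set of pax3.S measured 5.64, 7.31 and 7.12 in treated caps, against 1.93, 2.34 and 2.31 in control caps. All treated samples were far above all controls, a change of 4.49 ± 0.21 (adjusted p = 8.3e-07). The other pax3.S probe set changed by 4.84 and 1 of the 5 pax3.L probe sets by 5.29, while the remaining pax3.L probe sets were not called. For zic1.S, the probe set with the higher level, Xl2.1796.1.S2_at, had 9.66, 10.34 and 9.76 in treated caps, against 8.06, 7.79 and 8.77 in control caps (1.71 ± 0.24, adjusted p = 0.000554). In Pax3 caps with the drug, which received no Zic1, it had 9.81, 10.19 and 10.54, and the contrast of the treated caps with these was not called (-0.26 ± 0.24, adjusted p = 0.941). The other zic1.S probe set, Xl2.1796.1.S1_at, had 9.34, 10.15 and 10.54 in treated caps, against 6.74, 6.98 and 7.69 in control caps (2.87 ± 0.15, adjusted p = 1.38e-06), and 8.24, 9.15 and 9.22 in Pax3 caps with the drug, a contrast of 1.14 (adjusted p = 0.00748). The array cannot separate injected from endogenous transcript where a probe set lies in the coding part of the message. Of 27 ectoderm marker genes 21 lay above the median level in control caps, with epcam.S at 11.35, 11.48 and 11.62 in treated caps and 11.41, 11.43 and 11.46 in control caps. Of the same 27 genes 10 fell and 3 rose in treated caps.

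Of 32539 probe sets, 6159 were called, 18.9% of those tested. In treated caps 2978 rose (9.15%) and 3181 fell (9.78%), with a median rise of 0.78 and a median fall of -0.66. A change of at least 1 log2 was reached by 1010 rises (3.1%) and 848 falls (2.61%), and one of at least 3 log2 by 97 rises and 51 falls. Counted as genes, 1306 of 11303 rose (11.6%) and 1086 fell (9.61%), and these percentages are the background for every list of genes below. The direction was the same in all 3 pairs for 2939 of the rises and 3160 of the falls. The calls rest on the same pairs, which favours this agreement, so it is no separate support. The groups did not overlap in 6691 probe sets (20.6%). The number of calls depends on the pairing and on single samples: without the replicate block 1483 probe sets were called (4.56%), or 327 genes higher (2.89%) and 261 lower (2.31%), and without control replicate 1 the count was 3821. Leaving out replicate 1, 2 or 3 in all groups gave 2709, 3133 and 3970 calls, and without control replicate 3 the rises numbered 1947. The share of all genes that rose or fell also shrank, and list counts with samples left out are to be read against it: 7.95% rose and 6.35% fell without treated replicate 3, 8.03% and 6.98% without treated replicate 1, and 10.2% and 7.03% without treated replicate 2. The shares were 7.27% and 5.4% without control replicate 1, 9.86% and 6.91% without control replicate 2, and 7.43% and 6.89% without control replicate 3. Without replicate 1, 2 or 3 in all groups 5.01%, 7.01% and 7.34% rose and 4.34%, 3.88% and 5.88% fell.

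**Figure D1:**
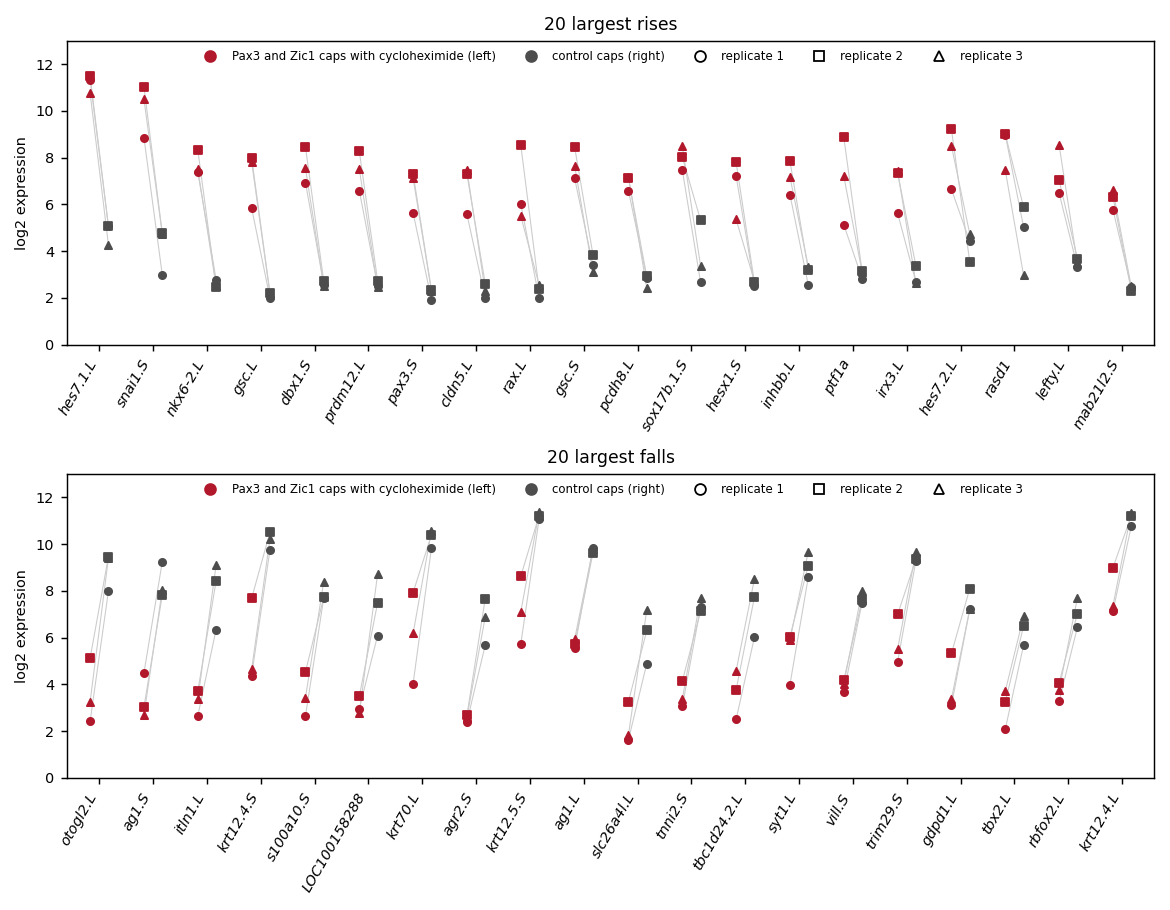
Log2 expression of the 20 genes with the largest rises (top) and the 20 with the largest falls (bottom) in each of the 3 treated caps samples (red, left of each pair) and the 3 control caps samples (grey, right); symbols give the replicate number and lines join a pair. For every gene shown all treated samples lie on one side of all control samples, with hes7.1.L at 11.34, 11.48 and 10.75 in treated caps against 5.06, 5.07 and 4.27 in control caps. The genes were picked as the largest called changes between these samples, which favours such separation. Over all probe sets the groups did not overlap in 20.6%.

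The largest rise of a named gene was that of hes7.1.L, a basic helix-loop-helix repressor of the Hes family that Notch signalling induces. It measured 11.34, 11.48 and 10.75 in treated caps, against 5.06, 5.07 and 4.27 in control caps. The groups were more than 5 log2 apart in every pair, and the change was 6.38 ± 0.38 (adjusted p = 2.57e-06). Next came snai1.S, a zinc finger repressor of epithelial genes and one of the defining factors of premigratory crest. Its values were 8.85, 11.03 and 10.49 in treated caps, against 2.99, 4.77 and 4.75 in control caps. Replicate 1 was lowest in both groups, so the change was nearly constant over the pairs at 5.95 ± 0.29 (adjusted p = 9.9e-07).

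Transcription factors of the neural tube and brain came next. The ventral spinal cord factor nkx6-2.L measured 7.39, 8.34 and 7.51 in treated caps and 2.79, 2.47 and 2.52 in control caps, a change of 5.15 ± 0.30. Values for dbx1.S, a homeobox gene of intermediate spinal cord progenitors, were 6.93, 8.47 and 7.55 in treated caps and 2.58, 2.71 and 2.53 in control caps, a change of 5.05 ± 0.45. Control caps were near the bottom of the array's range for both genes. Also high were prdm12.L, which marks the border and sensory neurons (4.88 ± 0.32), and the eye field gene rax.L (4.38 ± 0.43). The other probe sets of hes7.1.L rose by 6.23 and 4.57 and that of rax.L by 3.62. That of nkx6-2.L rose by only 1.25, and those of irx3.L and insm1.L, named below, by only 2.19 and 1.63. In rax.L the treated samples were spread widely, at 6.02, 8.54 and 5.50, against 1.99, 2.36 and 2.56 in control caps. Further rises were hesx1.S of the anterior neural ridge (4.15 ± 0.39), ptf1a, a neurogenic and pancreatic factor (4.04 ± 0.48), irx3.L (3.91 ± 0.43), mab21l2.S and mab21l2.L (3.81 ± 0.25 and 3.73 ± 0.18) and insm1.L, a zinc finger factor of differentiating neurons (3.72 ± 0.28).

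The 30 leading rises also held genes of the organizer and of secreted signals. The organizer homeobox gene goosecoid rose in both copies, gsc.L by 5.08 ± 0.40 and gsc.S by 4.29 ± 0.33. The activin subunit gene inhbb.L had 6.42, 7.85 and 7.17 in treated caps and 2.56, 3.21 and 3.34 in control caps (4.11 ± 0.24). Also higher were lefty.L, a Nodal antagonist (3.85 ± 0.40), chrd.1.S, which encodes the BMP antagonist Chordin (3.75 ± 0.21), and dkk1.S, a Wnt antagonist (3.55 ± 0.30). Surface and signalling proteins among the 30 were cldn5.L, a tight junction claudin (4.49 ± 0.41), pcdh8.L, a protocadherin of gastrula cell movements (4.21 ± 0.26), aplnr.S, the apelin receptor (3.79 ± 0.49), and the small GTPase gene rasd1 (3.85 ± 0.41). The remaining members of the 30 were sox17b.1.S, sox17b.1.L and foxa1.L, taken up with the endoderm below, hes7.2.L (3.88 ± 0.56), enc1.2.S (3.53 ± 0.32), rasgef1a.L (3.61 ± 0.29) and arrdc2.S (3.48 ± 0.32). The other probe sets of pcdh8.L rose by 0.77 and 1.05, and of those of hes7.2.L, 1 rose by 4.07 and 1 changed by 0.81 and was not called (adjusted p = 0.143). Of 2 other probe sets of arrdc2.S, 1 also rose and 1 changed by -0.15 and was not called.

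The 20 largest falls included genes of epidermis, its secretory cells and the cement gland, a mucus-secreting organ at the front of the larva. The mucin-like otogl2.L measured 2.43, 5.12 and 3.26 in treated caps, against 7.99, 9.46 and 9.40 in control caps, a change of -5.34 ± 0.37 (adjusted p = 6.27e-06). The cement gland gene ag1.S had 4.50, 3.03 and 2.70 in treated caps, against 9.24, 7.81 and 8.05 in control caps. Treated and control values did not overlap, and ag1.S had the lowest adjusted p of the falls named here, at 1.76e-07 (-4.95 ± 0.17). Its copy ag1.L (-4.00 ± 0.25) and the related agr2.S (-4.18 ± 0.33) fell as well, as did itln1.L, a lectin of the secretory cells of the epidermis (-4.72 ± 0.39). Among epidermal keratins, krt12.4.S had 4.38, 7.68 and 4.64 in treated caps, against 9.75, 10.50 and 10.21 in control caps. Treated replicate 2 kept the highest value here, and krt12.5.S (-4.06 ± 0.38), krt70.L (-4.21 ± 0.47) and krt12.4.L (-3.27 ± 0.28) had the same order of samples. The rest were gdpd1.L (-3.57 ± 0.24), LOC100158288 (-4.36 ± 0.54), s100a10.S (-4.40 ± 0.31), trim29.S (-3.62 ± 0.35), the T-box repressor tbx2.L (-3.35 ± 0.42), the synaptotagmin syt1.L (-3.80 ± 0.22), the anion transporter slc26a4l.L (-3.87 ± 0.36), the splicing regulator rbfox2.L (-3.34 ± 0.22) and the villin-like vill.S (-3.75 ± 0.19). The call of tbc1d24.2.L (-3.80 ± 0.30) was lost without the replicate block (adjusted p = 0.074). The other probe set of tnni2.S, which fell by 3.85 on the log2 scale, changed by -0.23 and was not called.

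The list of neural crest specifiers holds factors that define crest before it migrates. It also holds genes of other kinds, such as pcdh8.L, ednra.L, adam33.L and c9.L. Of 35 genes measured, 14 rose (40%), 1 fell and 20 were not called, with a median change of 0.65. Over all genes 11.6% rose and the median was -0.01. Besides snai1.S and pcdh8.L, the winged helix factor foxd3 rose in both copies: foxd3.L had 4.26, 5.71 and 6.29 in treated caps, against 1.86, 2.45 and 2.25 in control caps (3.23 ± 0.40), and foxd3.S changed by 3.13 ± 0.45. The AP-2 gene tfap2b.L had 4.64, 6.82 and 7.02 in treated caps, against 2.78, 3.16 and 3.17 in control caps (3.12 ± 0.32). Values were clearly above the controls in each pair, with treated replicate 1 the lowest throughout.

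Of the Slug gene, a relative of snai1, both copies rose from low levels: snai2.L had 3.98, 5.36 and 3.93 in treated caps, against 1.43, 1.22 and 1.34 in control caps (3.09 ± 0.33), and snai2.S changed by 2.06 ± 0.15. Smaller rises were found for the Hes repressors hes4.S (1.75 ± 0.27) and hes4.L (0.97 ± 0.21), the Myc genes mycn.S (1.33 ± 0.19), mycn.L (1.21 ± 0.23) and myc.S (1.00 ± 0.21), the SoxE gene sox9.L (1.19 ± 0.28) and ets1.L (1.09 ± 0.23). In sox9.L, myc.S and ets1.L the values of the groups overlapped. All 7 of these smaller rises lost their call without the replicate block, where 7 of the 35 genes rose. Probe sets of 4 of them disagreed. The other probe sets of mycn.L (-0.19) and mycn.S (0.55, adjusted p = 0.0855) were not called, 2 of the other 4 of myc.S (-0.07 and 0.93) were not called, and 1 of the other 2 of ets1.L (0.08) was not called. The fall was that of myb.S (-1.26 ± 0.22).

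Other crest factors were among those not called. The SoxE gene sox10.L, which follows the early specifiers, changed by -0.14, twist1.L by 0.66 and sox8.L by 0.42. The AP-2 gene tfap2a, expressed through the early ectoderm, stood at 9.59, 10.42 and 10.45 in treated caps and at 9.99, 10.23 and 10.29 in control caps for its .L copy. Its groups overlapped fully, with a change of -0.02 and a 95% interval from -0.57 to 0.53 for tfap2a.L and a change of 0.04 for tfap2a.S.

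**Figure D2:**
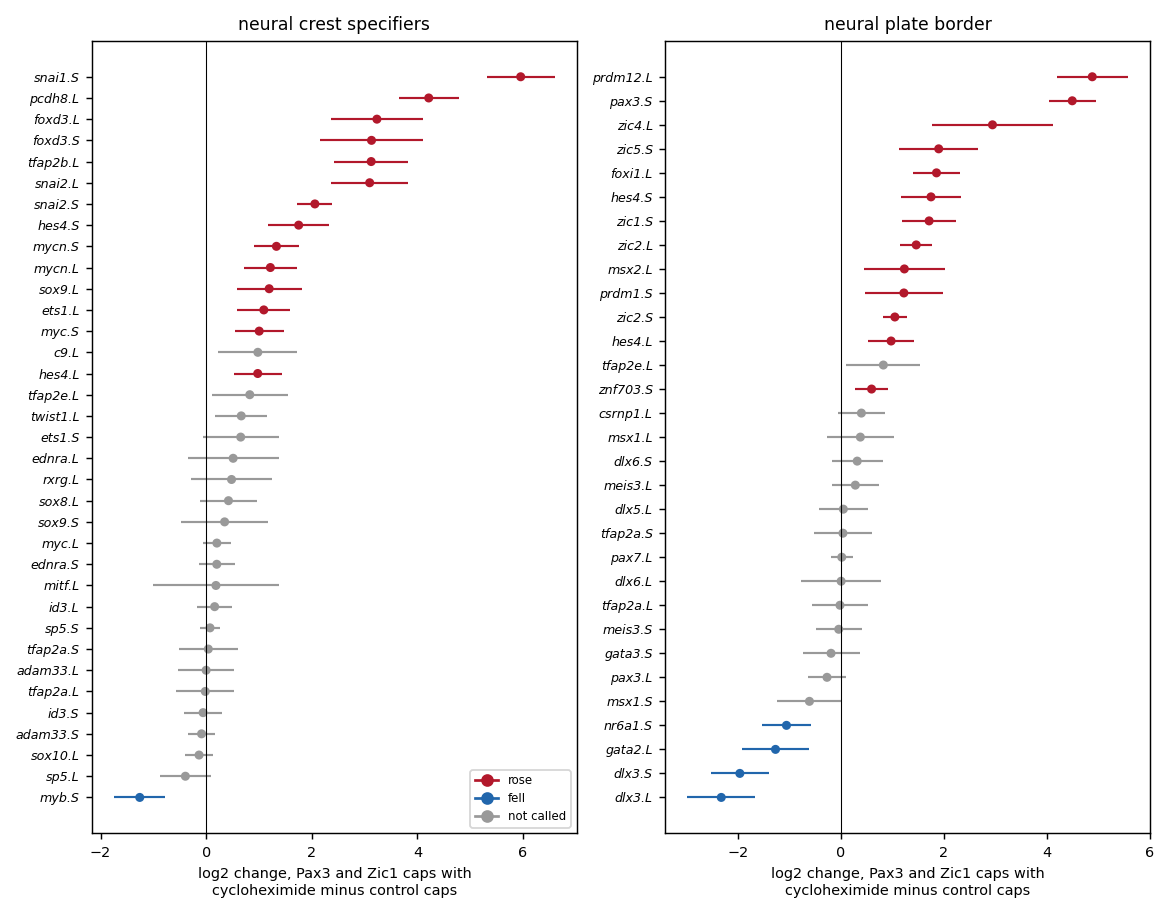
Change in log2 expression, treated minus control caps, of the 35 measured genes of the neural crest specifier list (left) and the 31 of the neural plate border list (right). Points are estimates, lines are 95% intervals from limma, and colour gives genes that rose, fell or were not called. The 14 crest genes that rose run from hes4.L at 0.97 to snai1.S at 5.95.

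In the neural plate border list 13 of 31 genes rose (41.9%) and 4 fell (12.9%), with a median change of 0.38. Without the block 8 rose and 2 fell, and leaving out replicate 2 in all groups also left 8 rises. The genes of the injected factors, pax3.S and zic1.S, are members, and prdm12.L was described above. Their injected and endogenous transcripts may not be separated on the array. The zic1.S probe set counted here averaged 9.92 in treated caps and 10.18 in Pax3 caps with the drug, which received no Zic1. Other members of the Zic family rose: zic4.L by 2.94 ± 0.54, zic5.S by 1.90 ± 0.35, zic2.L by 1.46 ± 0.14 and zic2.S by 1.05 ± 0.11. These genes are near-identical in their zinc fingers, so cross-hybridisation with the injected zic1 was not tested. Their means in Pax3 caps with the drug were 3.96 for zic4.L and 3.26 for zic5.S, and the contrast of the treated caps with those called neither.

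The winged helix gene foxi1.L, a regulator of ectodermal fate, had 11.33, 11.66 and 11.73 in treated caps, against 9.99, 9.63 and 9.53 in control caps (1.86 ± 0.21). It averaged 8.65 in Pax3 and Zic1 caps without the drug, and the contrast with those caps was 2.92 (adjusted p = 4e-05). The border genes msx2.L (1.23 ± 0.36), prdm1.S (1.22 ± 0.34) and znf703.S (0.60 ± 0.15) also rose, and all 3 lost the call without the block, msx2.L and prdm1.S also without treated replicate 3 (adjusted p = 0.0791 and 0.105). Of the other prdm1.S probe sets 1 rose by 1.35 and 1 changed by 1.18 and was not called (adjusted p = 0.0539). The 4 falls were the non-neural border genes dlx3.L (-2.33 ± 0.30), dlx3.S (-1.96 ± 0.26) and gata2.L (-1.27 ± 0.29), with nr6a1.S (-1.06 ± 0.22). They are 12.9% of the list, near the 9.61% over all genes. The other 3 probe sets of nr6a1.S changed by -0.18, -0.21 and 0.24 and were not called, and its fall lost the call in 4 of 19 alternatives (adjusted p up to 0.163). For dlx3.L the values were 6.21, 8.29 and 7.55 in treated caps, against 9.21, 9.70 and 10.12 in control caps, without overlap.

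Neural plate genes numbered 70, of which 30 rose (42.9%) and 5 fell (median 0.40), or 18 and 2 without the block. Pan-neural SoxB1 and SoxC factors were among them: sox3.S had 10.75, 10.70 and 10.45 in treated caps, against 8.57, 8.75 and 9.58 in control caps (1.67 ± 0.23), and sox11.S rose as well, at 10.59, 9.80 and 10.24 in treated caps, against 8.07, 7.72 and 8.43 in control caps. The other copy, sox3.L, was not called (0.66, adjusted p = 0.103). The forebrain gene otx1.L rose by 3.25 ± 0.19. The falls were hes5.1.S (-2.73 ± 0.34), hes5.1.L (-1.35 ± 0.39), tubb2b.S (-1.30 ± 0.32), ncam1.S (-0.75 ± 0.11) and irx1.S (-0.54 ± 0.11). Of these, tubb2b.S encodes a neuronal tubulin and ncam1.S the neural adhesion molecule NCAM. In the placode list, which shares members with the neural plate, 8 of 29 rose and 3 fell, at a median of 0.10. Its largest rise was ebf2.S, a helix-loop-helix factor of early neurons (2.32 ± 0.26), and 5 rises were left without treated replicate 2, 4 without treated replicate 3 and 4 without the block. The falls, at 10.3% near the 9.61% over all genes, were dlx3.L, dlx3.S and irx1.S.

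In the epidermis and non-neural ectoderm list 27 of 65 genes fell (41.5%), against 9.61% over all genes, and 5 rose, with a median of -0.40. Without the replicate block 16 fell and 2 rose. The largest falls were itln1.L and the keratins described above. In these bulk samples fewer cells of a type and less RNA per cell cannot be told apart. The rises were foxa1.L (3.56 ± 0.28), a factor that also belongs to the endoderm, foxi1.L, tfcp2l1.L (1.11 ± 0.31), dsc3.S (0.95 ± 0.19) and foxa1.S (0.91 ± 0.25). General epithelial genes of the cap were mixed. Not called were epcam.L (-0.24), cdh3.L (0.00) and grhl3.L (0.15). E-cadherin, cdh1.S, fell by 1.61 on the log2 scale, and krt8.1.S (-1.47), krt18.1.L (-1.05), krt18.3.L (-0.85), grhl1.L (-0.79) and tp63.S (-0.79) fell as well. The copies krt18.1.S (-0.23) and tp63.L (-0.08) were not called. Levels of tp63.S were low, at 2.29, 2.40 and 2.07 in treated caps and 2.87, 3.38 and 2.88 in control caps. The call of grhl1.L was lost without treated replicate 3 (adjusted p = 0.083). In the list of hatching and cement gland genes the 4 falls of 13 were ag1.S, ag1.L, agr2.S and agr2.L, and the 2 rises were otx2.L and otx2.S, of which no call was left without treated replicate 2 or 3, without control replicate 2 or without the block. The fall of agr2.L (-1.82) lost its call in 9 of 18 alternatives, treated replicate 3 left out among them (adjusted p up to 0.198).

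**Figure D3:**
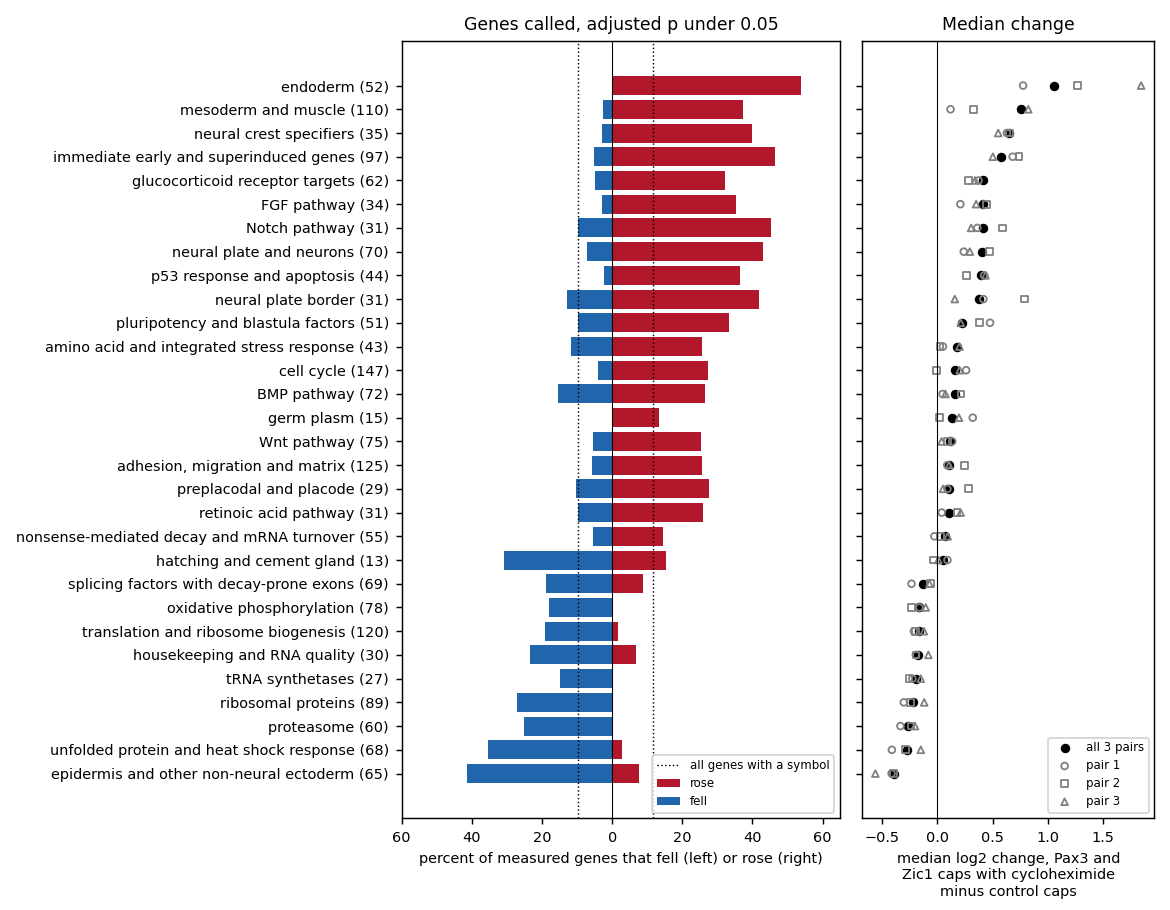
For each of the 30 gene lists (number of measured genes in brackets), the percent of genes that rose (red, right) or fell (blue, left) in treated against control caps, with dotted lines for all genes with a symbol (11.6% and 9.61%), and the median log2 change over all pairs (black) and in each pair (open symbols). The endoderm list lies highest with a median of 1.06 and the epidermis list lowest with -0.40.

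Genes on the lists of the other germ layers rose as well. In control caps 2 of 14 endoderm markers and 3 of 15 mesoderm markers already lay above the median level. In the endoderm list 28 of 52 genes rose (53.8%) and 0 fell, with a median of 1.06, and its medians in pairs 1, 2 and 3 were 0.78, 1.27 and 1.85. Without treated replicate 3 there were 22 rises (42.3%) and a median of 0.92, without the block 18 rises, and without replicate 2 in all groups also 18. The Sox factor sox17b.1.L, which specifies endoderm, had 6.41, 6.76 and 6.80 in treated caps, against 2.48, 3.50 and 2.92 in control caps (3.69 ± 0.23), and sox17b.1.S changed by 4.21 ± 0.56. Both were higher in every treated sample than in any control, and without treated replicate 3 the changes were 3.57 and 3.58. Of the 14 endoderm marker genes 10 rose, among them gata6.L (2.60), foxa2.L (2.46), sox17a.L (2.45) and gata5.L (2.26). Without treated replicate 3, 9 of the 14 rose. The T-box gene vegt.L rose by 1.85 ± 0.35, or by 1.61 without that sample.

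**Figure D4:**
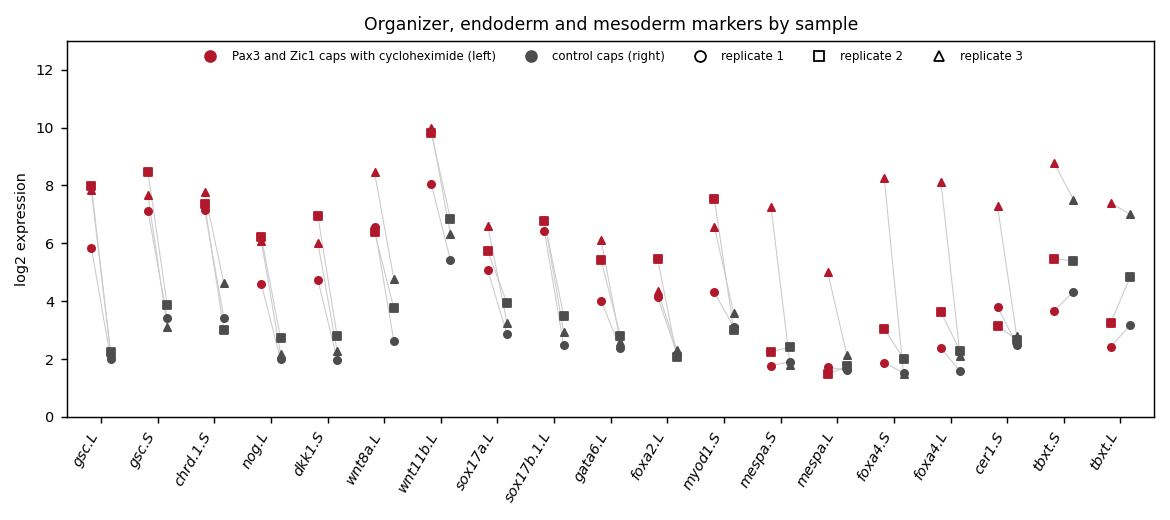
Log2 expression of 19 organizer, endoderm and mesoderm marker genes in each of the treated caps samples (red, left) and control caps samples (grey, right), with symbols for the replicate number and lines joining pairs. The groups are apart in all pairs from gsc.L to myod1.S, whereas mespa, foxa4 and cer1.S are high in treated replicate 3, and tbxt is high in replicate 3 of both groups. The genes are a choice from the markers measured. Those from gsc.L to myod1.S were all called, so their separation follows from the choice. Markers not shown include uncalled ones, such as gata4.S (0.08), a2m.S (0.42) and mespb.L (-0.10).

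Of 11 organizer marker genes 8 rose and 0 fell, or 6 and 0 without treated replicate 3. The organizer is the dorsal lip of the gastrula, a source of BMP and Wnt antagonists. Goosecoid was called with and without treated replicate 3: gsc.S had 7.12, 8.46 and 7.66 in treated caps, against 3.41, 3.86 and 3.10 in control caps, and the change without treated replicate 3 was 4.39. Chordin chrd.1.S, at 7.17, 7.36 and 7.77 in treated caps and 3.42, 3.00 and 4.61 in control caps, changed by 3.92 without that sample. By contrast cer1.S had 3.80, 3.14 and 7.27 in treated caps, against 2.50, 2.66 and 2.78 in control caps. Its change was 2.09 ± 0.66 with treated replicate 3 and 0.88 without it, and admp.S lost its call without it (adjusted p = 0.0637). The notochord gene foxa4.L, at 2.39, 3.62 and 8.13 in treated caps and 1.57, 2.28 and 2.09 in control caps, was not called.

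The mesoderm and muscle list had 41 rises of 110 (37.3%) and 3 falls, at a median of 0.76, with pair medians of 0.12, 0.33 and 0.82. Without treated replicate 3 there were 29 rises (26.4%) and the median was 0.20, without replicate 2 in all groups 24 rises, and without the block 22 rises and 2 falls. Many of these genes are on other lists too, such as snai1.S, gsc.L and pcdh8.L. The ligands wnt8a.L (3.41 ± 0.60), wnt11b.L (3.09 ± 0.32) and fgf8.L (3.26 ± 0.33) were members. Of the 15 mesoderm marker genes 4 rose: wnt8a.L, wnt11b.L, myod1.S (2.90) and myod1.L (1.78). All 4 also rose without treated replicate 3, wnt8a.L by 2.99 and wnt11b.L by 3.00. Of the other fgf8.L probe sets 2 rose and 1 changed by 0.15 and was not called. The pan-mesodermal gene tbxt.S had 3.67, 5.47 and 8.78 in treated caps, against 4.32, 5.39 and 7.51 in control caps. Those groups overlapped, with replicate 3 high in both, and tbxt.S was not called. The mean level of the 15 markers was 3.14, 4.02 and 5.45 in treated replicates 1, 2 and 3, against 2.62, 3.17 and 3.65 in the controls, and 3 markers lay below the first quartile of control levels in treated caps, against 8 in control caps. The part of mesoderm cells in these rises was not tested. The falls were tnni2.S, szl.S and gata2.L.

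Signalling pathways were mixed. Of the BMP list 19 of 72 rose and 11 fell (median 0.16), and without the block 4 rose and 4 fell. The rises numbered 12 without control replicate 1 or without control replicate 2, and 10 without replicate 1 or 2 in all groups. The rises included the antagonists chrd.1.S, nog.L (3.33 ± 0.32) and cer1.S and the BMP-family ligand gene admp.S (2.68 ± 0.63), while the secreted feedback inhibitor szl.S fell (-2.05 ± 0.38). The other probe sets of admp.S (1.78) and cer1.S (0.31) were not called, and without treated replicate 3 admp.S was not called and cer1.S changed by 0.88. For nog.L, which encodes Noggin, the values were 4.60, 6.22 and 6.09 in treated caps, against 2.00, 2.74 and 2.18 in control caps. In the FGF list 12 of 34 rose, led by the membrane protein flrt3.L (3.29 ± 0.36), fgf8.L, flrt3.S (2.45 ± 0.41), the receptor fgfr2.L (1.94 ± 0.22) and the feedback phosphatase dusp5.S (1.77 ± 0.21), and 1 fell, frs2.L. Without the block 6 rises were called, and without replicate 2 in all groups 4.

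Wnt genes gave 19 rises and 4 falls of 75 (median 0.12), or 9 and 1 without the block, and 11 rises without replicate 2 in all groups. Besides the ligands and dkk1.S, the planar polarity genes prickle1.S (2.56 ± 0.31) and prickle1.L (2.40 ± 0.21) rose. The falls, 5.33% of the list against 9.61% over all genes, were dvl3.L (-1.53 ± 0.18), fzd3.L (-1.15 ± 0.16), fzd6.S (-0.74 ± 0.15) and fzd8.S (-0.68 ± 0.14). Retinoic acid genes had 8 rises and 3 falls of 31, or 5 and 0 without the block, and the rises were led by its degrading enzymes cyp26c1.S (3.17 ± 0.51), cyp26a1.S (3.06 ± 0.30) and cyp26a1.L (2.49 ± 0.38), the reductase dhrs3.L (2.66 ± 0.26) and the orphan receptor nr2f1.L (1.77 ± 0.35). Other probe sets of cyp26c1.S, at 0.44 and 0.66, and of cyp26a1.S, at 0.75, were not called. The falls, at 9.68% near the 9.61% over all genes, were rdh10.L (-0.91 ± 0.17), an enzyme of retinal synthesis, retsat.L (-0.71 ± 0.22) and tgm2.L (-0.53 ± 0.16). The other copy, rdh10.S, was called higher (0.67 ± 0.13).

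Notch genes had 14 rises of 31 and 3 falls (median 0.41), or 8 and 1 without the block and 8 rises without replicate 2 in all groups. Hes-type repressors led: hes7.1.L, hes7.2.L, esr-5.L (3.42 ± 0.48), hes2.L (2.99 ± 0.31) and hes1.S (2.85 ± 0.25). The falls were also in that family, hes5.1.S, hes5.3.L (-1.79 ± 0.56) and hes5.1.L. These falls are 9.68% of the list, near the 9.61% over all genes. Hes repressors were called in both directions. For hes2.L the values were 7.02, 8.41 and 6.44 in treated caps, against 3.73, 6.20 and 2.97 in control caps, and its call was lost without the block (adjusted p = 0.0988).

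Immediate early genes and genes known elsewhere to be superinduced by cycloheximide numbered 97, of which 45 rose (46.4%) and 5 fell (median 0.58). Without the block 15 rose and 3 fell, and without replicate 2 in all groups 29 rose. The stress gene gadd45g.S had 10.91, 11.57 and 11.18 in treated caps, against 7.66, 8.99 and 7.23 in control caps (3.26 ± 0.33). Also higher were the cytokine inhibitor socs3.L (3.40 ± 0.29), socs3.S (2.70 ± 0.28), hes1.S and the kinase plk2.S (2.61 ± 0.34). The calls of socs3.L and socs3.S were lost without the block (adjusted p = 0.136 and 0.108). The falls were zfp36.L (-2.45 ± 0.21), which encodes a protein that destabilises mRNA, btg1.L (-1.37 ± 0.19), ptgs2.S (-1.20 ± 0.21), dusp1.L (-1.11 ± 0.21) and id2.S (-1.11 ± 0.22). The other copies of btg1 and id2 were called higher, btg1.S by 0.53 ± 0.16 and id2.L by 1.03 ± 0.12. Targets of the glucocorticoid receptor known from mammals were given because dexamethasone also acts on the receptor of the embryo: 20 of 62 rose (32.3%) and 3 fell, at a median of 0.42, or 8 and 0 without the block and 12 rises without replicate 1 in all groups. They were led by arrdc2.S, snai2.L, pdk4.S (2.90 ± 0.34), cdkn1a.L and tsc22d3.S (2.33 ± 0.62), which lost its call in 7 of 18 alternatives (adjusted p up to 0.174), and the falls were dusp1.L, tgm2.L and ncoa5.S. The part of the hormone in these changes was not tested.

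Of 44 genes of the p53 response and apoptosis 16 rose (36.4%) and 1 fell, birc2.S (-1.21 ± 0.27), or 7 and 0 without the block. Rises numbered 10 without control replicate 1 and 9 without replicate 1 in all groups. The cyclin-dependent kinase inhibitor cdkn1a.L had 7.66, 8.62 and 8.54 in treated caps, against 5.83, 5.30 and 5.58 in control caps (2.70 ± 0.41). Next were plk2.S, ppp1r13l.L, an inhibitor of p53 (2.51 ± 0.17), sesn1.L (2.05 ± 0.29) and plk2.L (2.00 ± 0.32). The cell cycle list had 40 rises of 147 (27.2%) and 6 falls, with 9 rises without the block, 23 without treated replicate 3, 25 and 26 without control replicate 1 or 3, and 15 and 20 without replicate 1 or 3 in all groups. Its leaders were cdkn1a.L, the pocket protein rbl1.L (2.20 ± 0.20), the mitotic inhibitor kinase wee1.S (1.90 ± 0.21), ccng1.S (1.81 ± 0.34) and the replication factor cdc45.S (1.53 ± 0.15).

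In the unfolded protein and heat shock list 24 of 68 fell (35.3%) and 2 rose, with a median of -0.28, and 18 falls were called without the block (26.5%) and 17 with only the 6 samples fitted (25%), where 4.59% of all genes fell. The chaperone BiP, hspa5.L, had 8.66, 8.47 and 8.34 in treated caps, against 10.03, 9.78 and 10.13 in control caps (-1.49 ± 0.23, adjusted p = 0.00115). The groups were well apart, and its co-chaperone dnajb9.L (-2.08 ± 0.27), the disulphide isomerase pdia4.L (-1.76 ± 0.32), herpud1.S (-1.53 ± 0.22) and the stress factor xbp1.L (-1.27 ± 0.24) fell too. The rises were dnajb4.S (0.83 ± 0.20) and sel1l.L (0.48 ± 0.13). In the list of the integrated stress response 11 of 43 rose and 5 fell, or 4 and 3 without the block, and 7 rose without treated replicate 3, control replicate 1 or control replicate 3. It had sesn2.S (1.64 ± 0.21) and ddit4.S (1.55 ± 0.17) up and the amino acid transporter slc38a2.L down (-3.10 ± 0.33), with falls also of herpud1.S, herpud1.L, nfe2l2.L and pycr1.L. For slc38a2.L the values were 5.42, 5.82 and 6.97 in treated caps, against 9.21, 9.20 and 9.11 in control caps.

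Ribosomal protein genes fell in 24 of 89 cases (27%) and rose in 0, and 86 of the 89 were lower in treated caps, by a median of -0.22. These are small changes: rpl8.S had 9.28, 9.29 and 9.28 in treated caps, against 9.84, 9.73 and 9.71 in control caps (-0.47 ± 0.09). The number of calls rested on single samples and on the pairing, with 1 call without the block, 3 without control replicate 1, 6 without treated replicate 1, 7 without treated replicate 2, 15 and 12 without control replicates 2 and 3, and 13 after quantile normalisation. Proteasome genes fell in 15 of 60 cases (median -0.27), with psmc2.L at -0.79 ± 0.17. The count was 3 without the block, 8, 6 and 9 without treated replicate 1, 2 or 3, and 5 and 9 without control replicate 1 or 2. In the translation and ribosome biogenesis list 23 of 120 fell and 2 rose, eif4a2.L (1.13 ± 0.13) and eif4e3.L (0.70 ± 0.17), and the falls numbered 0 without the block, 5, 10 and 14 without treated replicate 1, 2 or 3, and 2, 11 and 10 without control replicate 1, 2 or 3. Oxidative phosphorylation genes fell in 14 of 78 cases, or 2 without the block, 9, 5 and 9 without treated replicate 1, 2 or 3, and 3 and 8 without control replicate 1 or 2. Genes of tRNA synthetases fell in 4 of 27 cases: kars1.L, cars1.S, rars1.S and vars1.S, or 1 without the block. The calls of rars1.S and vars1.S were lost in 12 and 11 of 19 alternatives, and the other probe sets of vars1.S (-0.13 and -0.29) were not called. With only the 6 samples fitted, 2 of the 89 ribosomal protein genes fell (2.25%), 1 of 120 translation genes (0.833%), 0 of 27 tRNA synthetase genes, 5 of 60 proteasome genes (8.33%) and 5 of 78 oxidative phosphorylation genes (6.41%), against 4.59% of all genes.

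Genes of mRNA processing moved in both directions. In the list of splicing factors with exons that lead to decay 6 of 69 rose (8.7%) and 13 fell (18.8%). Over all genes 11.6% rose and 9.61% fell. Without the block 4 of the splicing genes rose and 2 fell. The falls numbered 5 and 8 without treated replicate 1 or 3 and 5 without control replicate 1. Both copies of ccnl1 (ccnl1.L 1.32 ± 0.14, ccnl1.S 0.89 ± 0.16) and of the kinase clk2 (clk2.S 0.84 ± 0.11, clk2.L 1.02 ± 0.16) rose, and the splicing repressor ptbp1.S fell (-0.85 ± 0.13). The other probe set of clk2.L fell by 0.51 on the log2 scale. In the turnover list 8 of 55 rose (14.5%), near the 11.6% over all genes. The rises numbered 2 without the block, 4, 5 and 5 without control replicate 1, 2 or 3, and 5 without treated replicate 1 or 3. Among the 8 were sat1.S (1.30 ± 0.21) and the poly(A)-binding protein gene pabpc4.L (1.26 ± 0.13). In the same list 3 fell: zfp36.L, btg1.L, whose other copy btg1.S was called higher (0.53 ± 0.16), and pan2.S (-0.50 ± 0.14). Of 125 adhesion and matrix genes 32 rose and 7 fell (median 0.10), or 20 and 4 without the block and 20 rises without replicate 2 in all groups. They were led by cldn5.L, pcdh8.L, flrt3.L and the guidance receptor epha4.S, which had 7.16, 8.21 and 8.33 in treated caps, against 5.01, 5.44 and 5.76 in control caps (2.50 ± 0.14).

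The treated caps were next set against Pax3 and Zic1 caps without the drug, which share the factors, the injection and the hormone. Of all probe sets 5344 were called (16.4%), 2595 higher (7.98%) and 2749 lower (8.45%). The count was 517 without the block, 3356 and 2364 without treated replicate 1 or 3, and 3859 without Pax3 and Zic1 replicate 3. Among the leading rises, many were higher with the drug: hes7.1.L by 4.69 (adjusted p = 8.17e-05), hes7.2.L by 4.29, hesx1.S by 3.83, sox17b.1.L by 3.75, aplnr.S by 3.17, rax.L by 3.06 and nkx6-2.L by 2.73. Thus sox17b.1.L averaged 6.65 in treated caps and 2.90 in Pax3 and Zic1 caps, against 2.97 in control caps. The other probe set of nkx6-2.L was higher by only 0.99, and those of hes7.2.L by 4.21 and 1.42. The leading rises were picked by treated samples that this contrast shares, which favours such differences. Outside the 30, gadd45g.S was higher by 3.90 and socs3.L by 3.21. All 5 leading members of the unfolded protein and heat shock list were lower with the drug, pdia4.L by 1.91 and hspa5.L by 1.41 on the log2 scale. These 5, like gadd45g.S and socs3.L, were picked by their change in the same treated samples, which favours such differences. Of the 68 genes of that list 27 were lower and 0 higher, against 9.58% lower over all genes. For ribosomal proteins 28 of 89 were lower, and for immediate early genes 30 of 97 were higher and 3 lower, against 9.59% higher over all genes. List counts of this contrast were not repeated without the block or with samples left out.

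Other leading rises did not pass the test of that difference. These were dbx1.S (-1.17 ± 0.45), prdm12.L (0.43 ± 0.32), pax3.S (-0.26 ± 0.21), cldn5.L (-1.01 ± 0.41), gsc.S (-0.11 ± 0.33), irx3.L (0.07 ± 0.43), dkk1.S (0.85 ± 0.30) and arrdc2.S (-0.57 ± 0.32). The other probe set of dkk1.S was called, at 1.53 (adjusted p = 0.012). Means of dbx1.S were 7.65 in treated caps and 8.82 in Pax3 and Zic1 caps, against 2.60 in control caps. Those of prdm12.L were 7.46 in treated caps and 7.03 in Pax3 and Zic1 caps, against 2.58 in control caps. Among crest factors foxd3.L (0.74), foxd3.S (1.16) and tfap2b.L (0.41) were not called in this contrast, while snai1.S (2.34), snai2.L (1.56) and snai2.S (1.73) were higher with the drug. A missed threshold does not show that the levels are alike. The estimates themselves reached -1.17 for dbx1.S and 1.16 for foxd3.S, and with SEs of up to 0.45 differences well above 1 log2 remain possible.

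**Figure D5:**
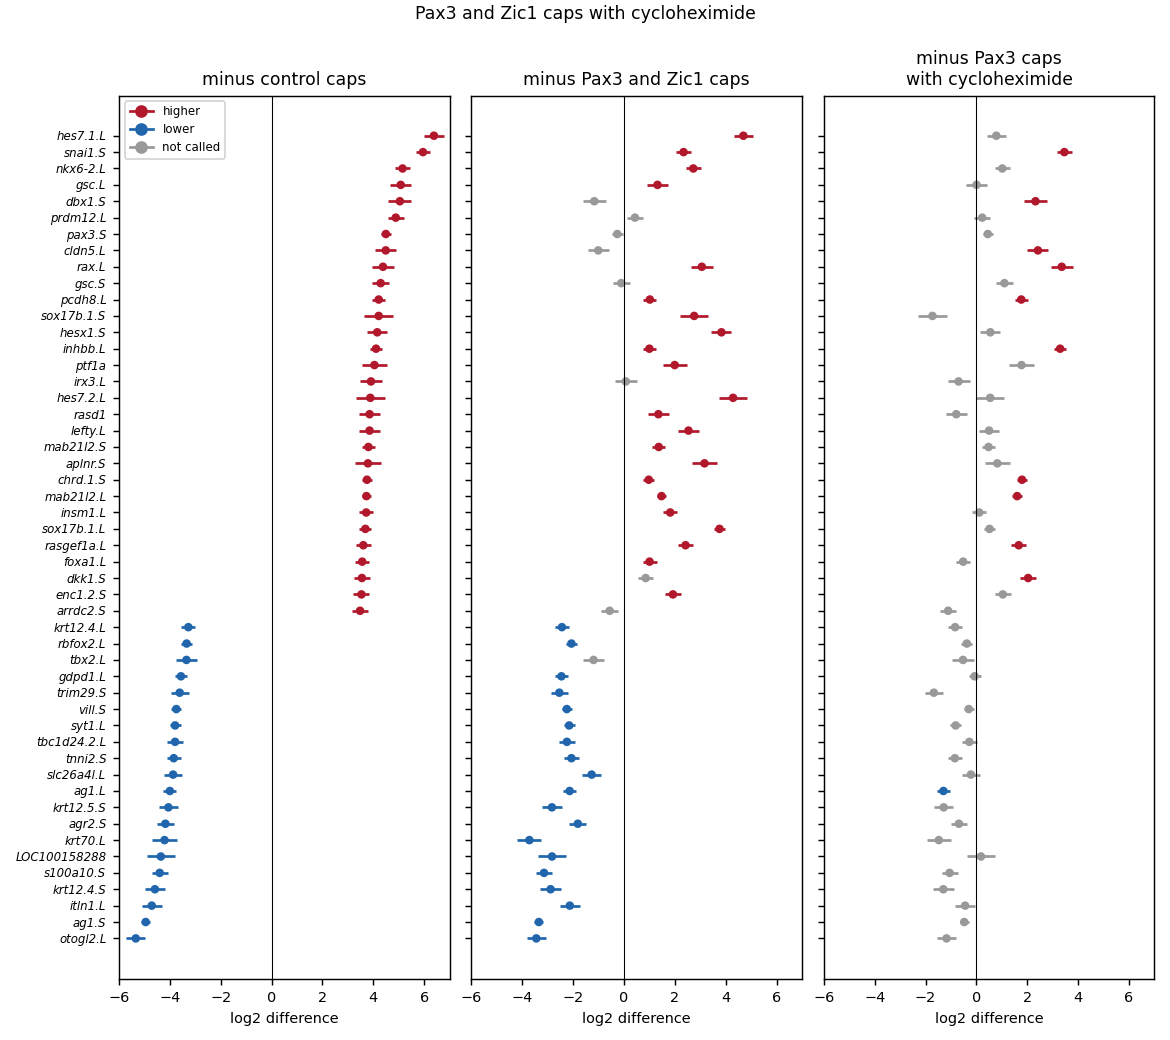
Difference in log2 expression of treated caps from control caps (left), from Pax3 and Zic1 caps without the drug (middle) and from Pax3 caps with the drug (right) for the 30 largest rises and 20 largest falls against control; points are limma estimates, lines are ± 1 SE, and grey points were not called. The falls are also lower than without the drug in all but tbx2.L, and snai1.S, rax.L and inhbb.L lie more than 3 log2 above Pax3 caps with the drug. The genes were picked by the left contrast, and all panels share its treated samples, which favours differences of the same sign.

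Of the 20 largest falls all but tbx2.L (-1.20, adjusted p = 0.0724) were also lower than in Pax3 and Zic1 caps without the drug. Over all genes 9.58% were lower. The 20 were picked for low values in the same treated samples that this contrast uses, so the count is partly set by the choice. The differences ran from -3.72 for krt70.L to -1.27 for slc26a4l.L. The level without the drug lay between the others for ag1.S, which averaged 3.41 in treated caps and 6.76 in Pax3 and Zic1 caps, against 8.36 in control caps.

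Against Pax3 caps with the drug, where both groups had cycloheximide and hormone and the treated caps also had Zic1, 242 probe sets were called (0.744%), 177 higher (0.544%) and 65 lower (0.2%). Without the block 11 were called, and between 70 and 246 when a sample of either group was left out: the count was 75 without treated replicate 2, 153 without treated replicate 3, and 91, 70 and 101 without replicate 1, 2 or 3 of the Pax3 caps with the drug. Higher were snai1.S (3.46 ± 0.29, adjusted p = 0.000644), rax.L (3.35 ± 0.43, and 2.93 at its other probe set) and inhbb.L (3.29 ± 0.24, adjusted p = 0.000245). For snai1.S the mean was 10.12 in treated caps and 6.67 in Pax3 caps with the drug, against 4.17 in control caps. Also higher were cldn5.L (2.42), dbx1.S (2.32), dkk1.S (2.03), ppp1r13l.L (1.93), ebf2.S (1.82), chrd.1.S (1.79), pcdh8.L (1.76), wnt11b.L (1.74), rasgef1a.L (1.66) and mab21l2.L (1.60), and ag1.L was lower (-1.30). Leading rises such as prdm12.L (0.23), gsc.L (0.00) and hesx1.S (0.55) were not called in this contrast. The probe sets of hes7.1.L disagreed: the one with the highest level differed by 0.78 and was not called, while the other 2 were higher by 3.36 (adjusted p = 0.00721) and 3.11 (adjusted p = 0.000722).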

How the data were processed

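Per the labels, total RNA was purified with Trizol and columns, and 10 ug were labelled with biotin for Affymetrix Xenopus laevis arrays. The deposited values, one for each probe set and array, were read as log2 from their range, with array means of 4.96 to 4.99. R 2.14.2 is named in the submitters' processing notes. Background correction, normalization and log base are not named in these sources. No value was subtracted or filtered further, so low values may be compressed. Depth does not apply to arrays, and their number limits the precision. Of 32635 probe sets 96 controls were left out. The platform annotation gave 1 symbol for 15495 of the rest, several for 279 and none for 16765. Of the named ones 15384 were in the table of RefSeq for Xenopus_laevis_v10.1, which updated 2 symbols.

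Groups follow the labels. Arrays 2.1 and 2.2 of Pax3 and Zic1 caps, of 1 biological replicate, were averaged (SD of their difference 0.183). limma 3.58.1 in R 4.3.3, with data.table (version 1.17.8), was fitted to all 15 samples (lmFit, eBayes; two-sided; residual degrees of freedom 8, prior 3.4) with the replicate number as a block, as the comparison pairs by number. With group means removed, same-numbered samples correlated at 0.43 to 0.86 (median 0.73) across probe sets, which are not independent replicates. Differently numbered samples of different groups correlated at most at -0.10. Removing a group's mean makes its deviations cancel, which pushes those correlations below those of the same number, so they are no separate support for the pairing. All 15 samples were closest to one of their own number. What else a number stands for is not stated there. Pax3 and Zic1 replicate 3 had the lowest values, 0.43 to 0.51. The labels number biological replicates.

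Alternatives were the fit without the block, the 6 samples alone, trended and robust priors, quantile normalisation, median centring, a level filter, a minimum change of 1, array 2.1 alone and leaving samples out. The method was also run on simulated data with independent noise and replicate effects of the form that the block assumes. That run cannot show whether the block suits these data. Members and the 30 gene lists, from textbook knowledge and with shared members, were chosen with earlier results of these data known; lists are described by counts and medians, with no test. Named were the 30 largest rises and 20 largest falls called and alike in all pairs, the 5 largest called changes of each list, all crest and border genes, all pax3 and zic1 probe sets, and the 2 largest unnamed rises and falls. Cell type markers, and members named because 5 or fewer of a list moved one way, fall outside that rule, the latter chosen after their values were seen. In the germ plasm list 2 of 15 genes rose (otx1.L and spire1.S), at 13.3% near the 11.6% over all genes, and 0 fell. The pluripotency list had 17 rises of 51 (33.3%) and 5 falls (9.8%, near the 9.61% over all genes), or 8 and 1 without the block. Of 30 housekeeping genes 2 rose (6.67%) and 7 fell (23.3%), or 0 and 1 without the block. Promoter motifs were not analysed here.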

Additional observations from a re-analysis of the deposited data

How the results depend on the processing

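The alternatives were a fit with no replicate block, a fit to the 6 samples compared, other variance priors, other scalings of the arrays, a filter on level, a minimum change, and leaving samples out. Against control the 6159 calls (2978 higher, 3181 lower) became 1483 (719 higher, 764 lower) with no replicate block, 3266 (1645 higher, 1621 lower) when only the 6 samples were fitted with the block, and 1858 (1010 higher, 848 lower) when a change of at least 1 was also asked. Leaving out samples gave 2709 to 4976 calls, 1305 to 2535 of them higher and 1404 to 2441 lower. Intensity trend, robust prior, quantile normalisation, median centring, the level filter and array 2.1 alone left the count within 1.5 times of the main one, and so did leaving out Pax3 and Zic1 replicate 3, an alternative added after seeing the data (8326). The level filter tested 16270 probe sets rather than 32539, so its 4698 calls stand on a smaller base. Against Pax3 and Zic1 caps the 5344 calls became 517 with no replicate block, and 2364 to 6977 when samples were left out. Against Pax3 caps with the drug the 242 calls became 11 with no replicate block, and 70 to 246 when samples were left out. The level filter gave 110 calls among the 16270 probe sets at or above the median level, against 242 among all 32539. The causes were not tested.

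Of the 169 named genes that were called against control, all 169 kept their direction under every alternative with a value, 101 kept their call under all of them, and 112 under all but the fit with no replicate block. These genes were picked by their calls in this contrast, many as the largest changes. That choice favours a kept direction, so it is no separate support. Calls were lost most often for rars1.S (12 of 19 alternatives), vars1.S (11 of 19), agr2.L (9 of 18), znf703.S, pgk1, pgk1.L, rps4x.S and rps7.L (9 of 19 each), cer1.S (8 of 18) and msx2.L, otx2.L and utp15.L (8 of 19 each). Among the 190 genes followed, directions turned only in 7 uncalled crest genes. The only uncalled genes followed were those of the crest list and pax3.L. Of the 7, tfap2a.L was at 0.0457 after quantile normalisation (adjusted p = 0.932) and tfap2a.S at -0.00912 after median centring (adjusted p = 0.984). When samples were left out the 7 ran from -0.16 to 0.21 (tfap2a.L), -0.17 to 0.28 (tfap2a.S), -0.21 to 0.30 (adam33.L), -0.13 to 0.84 (ednra.L), -0.18 to 0.12 (id3.S), -0.31 to 0.47 (mitf.L) and -0.0851 to 0.75 (sox8.L). List counts without treated replicates or control replicates in turn were added after seeing the data. With 3 arrays a group, 292 of the rises started from control means below the first quartile of levels, where signal over background limits the size of a change.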

Other observations

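The largest rise on the array belonged to a probe set with no gene name in the tables used here. Xl2.48533.1.A1_at had 10.26, 11.11 and 10.03 in treated caps, against 2.61, 2.61 and 2.49 in control caps, a change of 7.90 ± 0.52 (adjusted p = 4.34e-06). It averaged 10.13 in Pax3 caps with the drug and 9.28 in Pax3 and Zic1 caps without it. A second unnamed probe set, Xl2.47609.1.S1_s_at, changed by 5.99 ± 0.56 against control. It averaged 8.99 in treated caps and 4.73 in Pax3 and Zic1 caps without the drug, against 3.00 in control caps. The largest falls without a name were Xl2.25551.2.S1_a_at (-4.92 ± 0.68) and Xl2.18637.1.S2_at (-4.75 ± 0.25).

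Both copies of a gene were measured for 2010 genes. Both rose in 103 of these and both fell in 84. Of the .L copies that rose 39.3% had an .S copy that rose, and of the .S copies that rose 41.9% had an .L copy that rose. For falls the shares were 36.4% and 42.4%. In 9 genes the copies were called in opposite directions: btg1, dpm2, id2, liph, mcrs1, mfsd6l, rdh10, slc25a24 and taf9b, chosen here after their values were seen. Of the .L genes 11.9% rose and 9.71% fell, and of the .S genes 11.3% rose and 9.62% fell. Probe sets of the copies can share signal, so these counts are a description of the probe sets.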
